A study of Mus musculus with 4 samples.

Results

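This account follows 10 genes that encode CtBP, histone deacetylase and other corepressor partners of Eos and Foxp3 in mouse CD4+ T cells: Ctbp1, Ctbp2, Hdac1, Hdac2, Hdac7, Rcor1, Ehmt2, Kdm1a, Sin3a and Kat5. They were taken by gene name, older synonym or accession from the probe annotation, and 15 of the 41174 non-control probes belonged to them, out of 27600 genes on the array in all. The series hybridised RNA of 4 samples to 1-colour arrays, 1 array per group and no replicates. All cells were CD4+ T cells from spleen and lymph nodes of BALB/c mice, and the labels gave no age and no number of animals. The si-Eos-labelled library came from natural regulatory T cells (Treg) that carried a lentivirus with a short hairpin RNA against Eos and a GFP reporter, were cultured for 60 h with human IL-2 and were then sorted as GFP+. The si-RL-labelled library came from Treg handled alike, with a hairpin against Renilla luciferase. The library labelled Treg was of untransduced CD4+CD25+ cells, and that labelled naive T of untransduced CD4+CD25- cells with high CD62L. The 4 groups are given in that order below.

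Corepressors carry no sequence-specific DNA binding of their own and are brought to genes by transcription factors. CtBP proteins are NAD(H)-binding dimers that dock on a short peptide motif and bring deacetylases and histone methyltransferases to the gene, and Eos (Ikzf4), a zinc-finger protein of the Ikaros family, is known to bind CtBP1. Foxp3, the transcription factor that defines Treg, is known from human T cells to bind the acetyltransferase TIP60 (Kat5) and HDAC7. The series title names Eos as a mediator of gene silencing by Foxp3, so the question here was how the transcripts of its partners differed between the 4 samples. The arrays measured mRNA only, not protein, location in the cell or complex assembly.

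The labels were checked first. Eos mRNA had a log2 difference of 0.93 ± 0.21 on its brightest probe between the hairpin libraries, higher in the one labelled si-Eos, where ± is the scanner software's error of the 2 spots and not a spread between samples. Foxp3 had a processed signal of 2644 in the si-Eos-labelled library, 110 in the si-RL-labelled library, 1778 in Treg and 64.4 in naive T cells. Eos goes against the label of the hairpin, and the si-RL-labelled library, a Treg sample by its label, lay nearer to naive T cells in Foxp3. Directions between the hairpin libraries below are those of the labels as given, and would turn if the labels were exchanged. All 4 CD4 T cell markers on the array were well above background in every library. The summed level of 7 proliferation markers was 62.3 in the si-Eos-labelled library, 32.7 in the si-RL-labelled library, 49.6 in Treg and 35.9 in naive T cells. That of 6 Treg markers was 312, 120, 138 and 27.8 in the same order, and that of 4 naive T cell markers 45.5, 122, 52.9 and 149. A sum weighs bright genes most, and Pcna was the brightest proliferation marker and Tnfrsf18 the brightest Treg marker on every array. Mki67, Top2a, Ccnb1, Cdk1 and Rrm2 were higher in the si-RL-labelled library than in naive T cells, and Pcna and Mcm5 lower. Against Treg, the si-RL-labelled library had lower Ikzf2 (log2 difference -3.95), Foxp3 (-3.43), Ctla4 (-2.29) and Ikzf4 (-1.18), and higher Il2ra (0.46) and Tnfrsf18 (0.42). B cell markers summed to between 1.11 and 2.65, with 4 or 5 of 6 well above background and Pax5 or Cd22 below it on each array. Myeloid markers summed to between 0.821 and 1.19, with 3 of 6 well above background in the hairpin libraries (not Lyz2, Itgam or Adgre1) and 5 of 6 in the untransduced samples. CD8 and NK cell markers summed to between 2.19 and 4.09, with 4 or 5 of 5 well above background. Their part in the differences below was not tested. In these bulk samples, fewer cells of a type and less RNA per cell cannot be told apart.

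A level below is a probe's processed signal divided by the 75th percentile of its array, and a difference is the log2 ratio of 2 such levels. With 1 array per group no test was possible, and 2-fold, a log2 difference of 1, served as the threshold. Each gene was read from its brightest probe, and on that probe all 10 genes were well above background on every array. Over the 4 arrays, the level of Ctbp2 spanned 3.56-fold and that of Ehmt2 2.09-fold, while the other 8 genes spanned between 1.38-fold (Sin3a) and 1.98-fold (Hdac7). The highest of the 4 levels was in the si-Eos-labelled library for 4 genes, in the si-RL-labelled library for 4, in Treg for 1 and in naive T cells for 1. The corepressor transcripts were thus seen in all samples, and their highest level was not in 1 sample throughout.

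**Figure D1:**
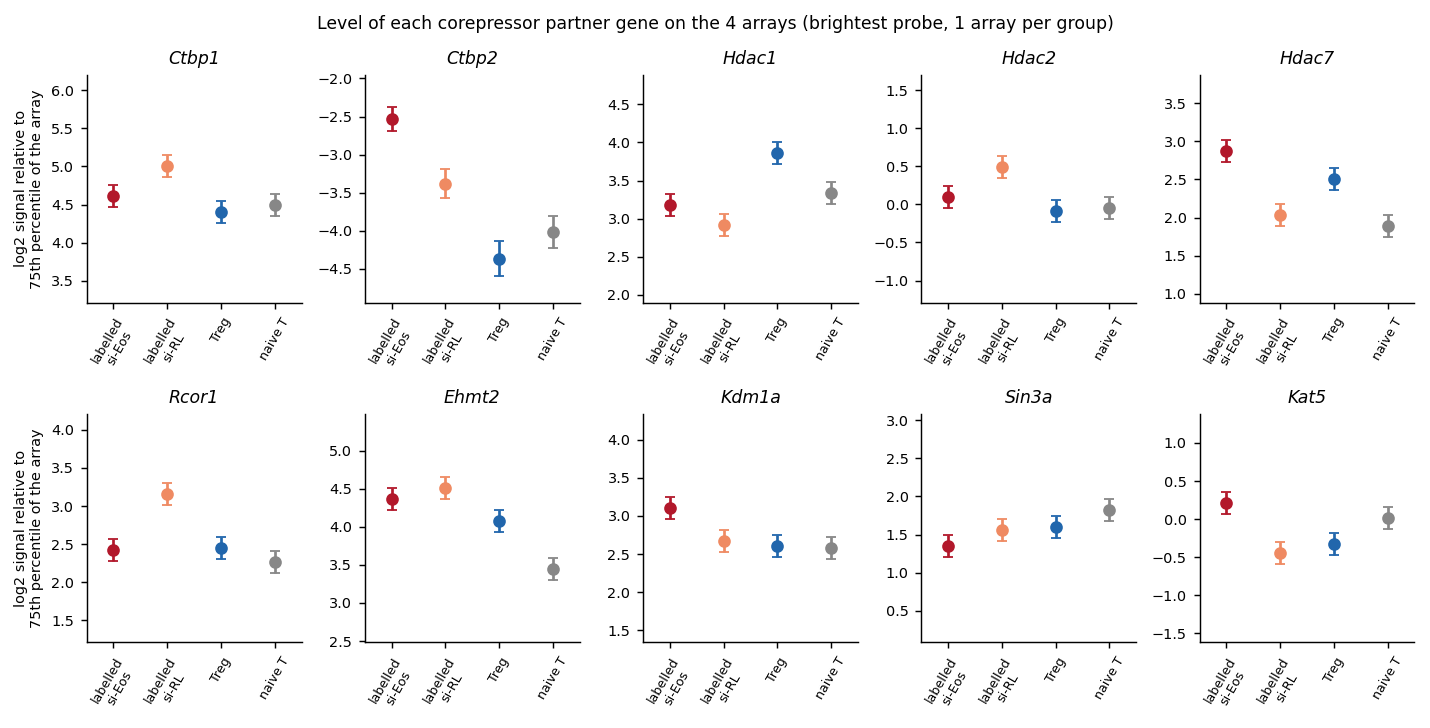
Level of each of the 10 genes on the 4 arrays: log2 signal of the brightest probe relative to the 75th percentile of the array, 1 point per array, with the scanner error as the bar. Each panel spans the same log2 range around its own middle, so panels can be compared in spread but not in height. Ctbp2 spans 3.56-fold with its highest point in the si-Eos-labelled library, Hdac1 peaks in Treg, Ehmt2 is lowest in naive T cells, and Sin3a spans 1.38-fold.

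Ctbp1, the CtBP that Eos is known to bind, spanned 1.52-fold over the samples. Its probe (chr5:33564972-33565031, mm8) had a level of 24.6 in the si-Eos-labelled library, 32.2 in the si-RL-labelled library, 21.2 in Treg and 22.5 in naive T cells. The si-RL-labelled library stood highest. Ranked from high to low, the si-Eos-labelled library, naive T cells and Treg each lay within the scanner error of the next. The si-Eos-labelled library and Treg differed by 0.21 ± 0.20. Ctbp1 differed by -0.09 ± 0.20 between Treg and naive T cells and by -0.39 ± 0.20 between the si-Eos-labelled library and the si-RL-labelled library. Against Treg it was higher in the si-RL-labelled library by 0.61 ± 0.20, below 2-fold.

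Ctbp2, the paralogue of Ctbp1, had a dim probe and the widest span of the 10 genes. Its brighter probe (chr7:132826285-132826344, mm8) had a processed signal of 55.3 in the si-Eos-labelled library, 25.1 in the si-RL-labelled library, 19.0 in Treg and 18.7 in naive T cells. The lowest signal called well above background on these arrays was between 8.90 and 11.2, so 3 of the 4 values lay close to that limit. After scaling, its levels were 0.173, 0.0958, 0.0485 and 0.0618 in the same order, highest in the si-Eos-labelled library and lowest in Treg. Ctbp2 was 3.56-fold higher in the si-Eos-labelled library than in Treg (1.83 ± 0.28), the single case among the 10 genes of a difference past 2-fold in the 4 comparisons. It was higher in the si-Eos-labelled library than in the si-RL-labelled library by 0.85 ± 0.24, and in the si-RL-labelled library than in Treg by 0.98 ± 0.30. The 2-fold call depended on the background correction: the log2 difference from Treg was 0.80 with normexp and 1 background value per array, and -0.95 with normexp and local backgrounds. The other Ctbp2 probe (chr7:132828385-132828444, mm8) was not well above background on any array, with signals of 7.68, 2.23, 4.52 and 2.04.

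The start regions of Ctbp1 and Ctbp2 are shown because, of the paralogues among the 10 genes, this pair differed most in the span of levels on the brightest probe. Each line gives the 250 bases before the most upstream RefSeq transcript start on build GRCm38.p6, 5′ to 3′ on the minus strand, for Ctbp1 at chr5:33275005-33275254 and for Ctbp2 at chr7:133081861-133082110. Capitals mark matches on either strand to TGGGAA, a core of Ikaros-type sites, and to GTAAACA, a forkhead core, and the motifs do not overlap each other.
Ctbp1: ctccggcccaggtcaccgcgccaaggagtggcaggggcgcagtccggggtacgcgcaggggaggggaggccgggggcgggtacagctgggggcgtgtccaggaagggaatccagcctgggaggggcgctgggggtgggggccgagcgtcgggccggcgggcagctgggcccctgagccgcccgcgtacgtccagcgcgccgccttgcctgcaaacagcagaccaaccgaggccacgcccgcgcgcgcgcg
Ctbp2: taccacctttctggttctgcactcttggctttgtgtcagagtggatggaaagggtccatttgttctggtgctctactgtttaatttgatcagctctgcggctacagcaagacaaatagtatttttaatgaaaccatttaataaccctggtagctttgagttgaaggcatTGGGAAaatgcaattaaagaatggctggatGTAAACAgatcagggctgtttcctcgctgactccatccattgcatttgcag
The Ctbp1 window was 77.6% G and C with 31 CpG and held neither motif. The Ctbp2 window was 42.4% G and C with 2 CpG, and held TGGGAA starting 81 bases and GTAAACA starting 51 bases before the start. Ctbp2 has 2 listed starts, and the window of the other held neither motif. Which start these cells used is not known from the arrays, and a match is a description of letters, not of binding. Of 32851 such windows over all genes and starts, 21.6% held TGGGAA and 3.17% held GTAAACA, against 3 and 2 of the 16 windows of 9 of the 10 genes. Hdac1 had no window in the table.

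Among the deacetylases, Hdac1 was highest in Treg. HDAC1 and HDAC2 are class I deacetylases that form the catalytic core of the Sin3, NuRD and CoREST complexes. The Hdac1 probe (chr4:129018567-129018638, mm8) had a level of 9.06 in the si-Eos-labelled library, 7.55 in the si-RL-labelled library, 14.6 in Treg and 10.1 in naive T cells. Treg stood above the other 3. Treg exceeded naive T cells in Hdac1 by 0.53 ± 0.20, and the si-RL-labelled library lay below Treg by a log2 difference of -0.95 ± 0.20, just short of 2-fold. It passed 2-fold with spike-in scaling (-1.37) and with normexp and 1 background value per array (-1.08), and was -0.47 with normexp and local backgrounds. The si-Eos-labelled library lay below Treg by -0.69 ± 0.20, by -1.03 with spike-in scaling, and by -0.13, within the scanner error, with normexp and local backgrounds.

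Hdac2 was read differently by its 2 probes. The brighter (chr10:36683065-36683199, mm8) had a level of 1.07 in the si-Eos-labelled library, 1.41 in the si-RL-labelled library, 0.941 in Treg and 0.968 in naive T cells, highest in the si-RL-labelled library. The dimmer (chr10:36684916-36684975, mm8) had 0.0574, 0.0714, 0.132 and 0.0909 in the same order, highest in Treg. Against Treg the si-RL-labelled library therefore differed by 0.58 ± 0.20 on the first and by -0.88 ± 0.29 on the second. The si-Eos-labelled library differed from Treg by 0.18 ± 0.20 and -1.20 ± 0.28. No direction can be given for Hdac2 against Treg, while between the hairpin libraries the probes read alike, at -0.40 ± 0.20 and -0.32 ± 0.33. Between Treg and naive T cells they read -0.04 ± 0.20 and 0.54 ± 0.25. With normexp and local backgrounds the brighter probe read 1.43 there.

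Hdac7, a class IIa deacetylase that is exported from the nucleus after T cell receptor signalling, was higher in the si-Eos-labelled library than in the si-RL-labelled library on both of its probes. The brighter probe (chr15:97621045-97621104, mm8) had a level of 7.31 in the si-Eos-labelled library, 4.09 in the si-RL-labelled library, 5.68 in Treg and 3.69 in naive T cells. The second (chr15:97621696-97621755, mm8) had 1.63, 0.653, 1.17 and 0.864 in the same order. On both, the si-Eos-labelled library stood first and Treg second. Between the hairpin libraries Hdac7 differed by 0.84 ± 0.20 (1.79-fold) and 1.32 ± 0.20 (2.49-fold), so that the mean of the probes passed 2-fold (1.08) and the brighter probe alone did not. Treg exceeded naive T cells by 0.62 ± 0.20 and 0.43 ± 0.20. Against Treg, Hdac7 was lower in the si-RL-labelled library, at -0.47 ± 0.20 and -0.84 ± 0.21.

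The start regions of Hdac7 are shown because both of its probes, each well above background on every array, were highest in the si-Eos-labelled library, and because its windows held 1 of each motif. The 250 bases before its most upstream RefSeq start (chr15:97844503-97844752) and before the next one (chr15:97831768-97832017) are given 5′ to 3′ on the minus strand of GRCm38.p6, with the same motifs in capitals.
Hdac7, first start: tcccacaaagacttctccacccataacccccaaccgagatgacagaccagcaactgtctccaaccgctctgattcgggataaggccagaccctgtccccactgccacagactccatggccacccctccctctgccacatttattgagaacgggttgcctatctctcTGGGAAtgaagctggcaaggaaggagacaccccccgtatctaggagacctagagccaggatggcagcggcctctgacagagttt
Hdac7, second start: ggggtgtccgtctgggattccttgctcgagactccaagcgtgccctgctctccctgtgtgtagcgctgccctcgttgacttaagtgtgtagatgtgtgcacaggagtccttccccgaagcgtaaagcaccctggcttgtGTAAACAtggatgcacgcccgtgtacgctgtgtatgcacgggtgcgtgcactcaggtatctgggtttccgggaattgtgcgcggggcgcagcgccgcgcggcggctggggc
TGGGAA began 84 bases before the first start and GTAAACA 111 bases before the second. The gene has 4 listed starts, and the windows of the remaining starts held neither motif. Ehmt2 also held TGGGAA, starting 226 bases before its first start.

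Rcor1 and Kdm1a encode a scaffold and an enzyme of the same complex. RCOR1 (CoREST) holds the demethylase KDM1A (LSD1), which removes methyl groups linked to active genes from histone H3, together with HDAC1 or HDAC2. The brightest Rcor1 probe (chr12:111561009-111561068, mm8) had a level of 5.36 in the si-Eos-labelled library, 8.94 in the si-RL-labelled library, 5.49 in Treg and 4.80 in naive T cells. The si-RL-labelled library stood apart, and the other 3 were within the scanner error of their neighbours. Rcor1 was lower in the si-Eos-labelled library than in the si-RL-labelled library, at -0.74 ± 0.20, and higher in the si-RL-labelled library than in Treg, at 0.70 ± 0.20. The other Rcor1 probes differed in size but not in sign: -0.19 ± 0.21 (chr12:111562894-111562953, mm8) and -0.91 ± 0.21 (chr12:111556712-111557640, mm8) between the hairpin libraries. Against Treg, the si-RL-labelled library was higher by 0.07 ± 0.21 and 1.26 ± 0.21 on these, so the size of the Rcor1 difference depended on the probe.

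Kdm1a went the other way between the hairpin libraries. Its probe, named Aof2 in the file (chr4:135822817-135822876, mm8), had a level of 8.62 in the si-Eos-labelled library, 6.38 in the si-RL-labelled library, 6.07 in Treg and 5.95 in naive T cells. The si-Eos-labelled library stood above the other 3, which were within the scanner error of each neighbour. Kdm1a was higher in the si-Eos-labelled library than in the si-RL-labelled library by 0.43 ± 0.20 and than in Treg by 0.51 ± 0.20, and differed by 0.03 ± 0.20 between Treg and naive T cells.

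Ehmt2 encodes G9a, a methyltransferase that places a repressive mark on histone H3 and is found in CtBP complexes. Its probe (chr17:34522013-34522071, mm8) had a level of 20.7 in the si-Eos-labelled library, 22.9 in the si-RL-labelled library, 16.9 in Treg and 10.9 in naive T cells. All 3 samples labelled as Treg lay above naive T cells, and the hairpin libraries lay within the scanner error of each other (-0.15 ± 0.20). Treg exceeded naive T cells by 0.63 ± 0.20, or 1.55-fold, close to the 0.62 ± 0.20 of Hdac7.

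Sin3a, the scaffold of the Sin3 deacetylase complex, had the narrowest span. Its probe (chr9:56925985-56926044, mm8) had a level of 2.55 in the si-Eos-labelled library, 2.94 in the si-RL-labelled library, 3.03 in Treg and 3.53 in naive T cells. Naive T cells were highest and the si-Eos-labelled library lowest, and the 4 comparisons gave differences between -0.25 ± 0.20 and -0.04 ± 0.20.

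Kat5, the catalytic subunit of the NuA4 acetyltransferase complex, was read by 1 probe named Htatip in the file (chr19:5603519-5603659, mm8). Its level was 1.16 in the si-Eos-labelled library, 0.734 in the si-RL-labelled library, 0.799 in Treg and 1.01 in naive T cells. The first and the last were high and lay within the scanner error of each other, and the remaining pair were low and likewise close. Kat5 was higher in the si-Eos-labelled library than in the si-RL-labelled library by 0.66 ± 0.20 and than in Treg by 0.53 ± 0.20. Unlike Hdac7, it was lower in Treg than in naive T (-0.33 ± 0.20). For each gene above, the probe positions are those of the array annotation, and exon or UTR was not analysed here.

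Between Treg and naive T cells, none of the 10 genes was 2-fold apart. Of 17597 measured genes, 7.55% were, 5.51% higher and 2.04% lower in Treg. Ehmt2, Hdac7 (0.62 ± 0.20) and Hdac1 were the 3 genes higher in Treg beyond the scanner error, and Kat5, Ctbp2 (-0.35 ± 0.31) and Sin3a (-0.22 ± 0.20) the 3 lower beyond it. The median of the 10 differences was -0.01, and that of all measured genes was -0.02. The lower and upper quartiles of all measured genes were -0.25 and 0.23, so a difference beyond 0.20 was common among them too. Hdac1, Hdac7, Ehmt2 and Kat5 kept their sign under all 8 alternatives, and the other 6 genes did not. Not every alternative could change these values in any comparison. Dropping the filter on dim probes could change none of the 10 genes. The mean of probes could change only Hdac2, Hdac7 and Rcor1.

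Between the si-Eos-labelled library and the si-RL-labelled library, again none of the 10 was 2-fold apart, where 20.8% of 17087 measured genes were. Ctbp2, Hdac7, Kat5, Kdm1a and Hdac1 (0.26 ± 0.20) were higher in the si-Eos-labelled library, and Rcor1, Hdac2, Ctbp1, Sin3a (-0.21 ± 0.20) and Ehmt2 were lower. The median was 0.06, against 0.04 for all measured genes. All 10 genes kept their sign under the 8 alternatives, not all of which could change them, and 9 of the 10 differences exceeded the scanner error. The lower and upper quartiles of all measured genes were -0.48 and 0.52, so a difference beyond 0.20 was common and is no trait of these 10. The shares of all measured genes that kept their sign or exceeded the error are not given here. The sizes of Ctbp2 (0.17 to 0.92) and Hdac7 (0.71 to 1.08) moved most over the alternatives.

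Against untransduced Treg, the si-RL-labelled library had none of the 10 genes 2-fold apart (16.1% of 17086 measured genes) and a median of 0.25, where all measured genes had -0.01. Ctbp1, Rcor1 and Ehmt2 (0.43 ± 0.20) were higher there and Hdac1, Hdac7 and Kat5 (-0.12 ± 0.20) lower under all 8 alternatives, while Ctbp2, Hdac2, Kdm1a and Sin3a turned sign in at least 1. The si-Eos-labelled library had 1 of the 10, Ctbp2, 2-fold apart from Treg (18.9% of 17901 measured genes) and a median of 0.25, where all measured genes had 0.06. Hdac7 (0.36 ± 0.20), Kdm1a and Kat5 were higher there and Hdac1 lower under all 8 alternatives, and the other 6 genes turned sign in at least 1. Both comparisons share the Treg array. They also set cultured and transduced cells against cells taken directly, so culture, transduction and hairpin cannot be told apart in them.

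**Figure D2:**
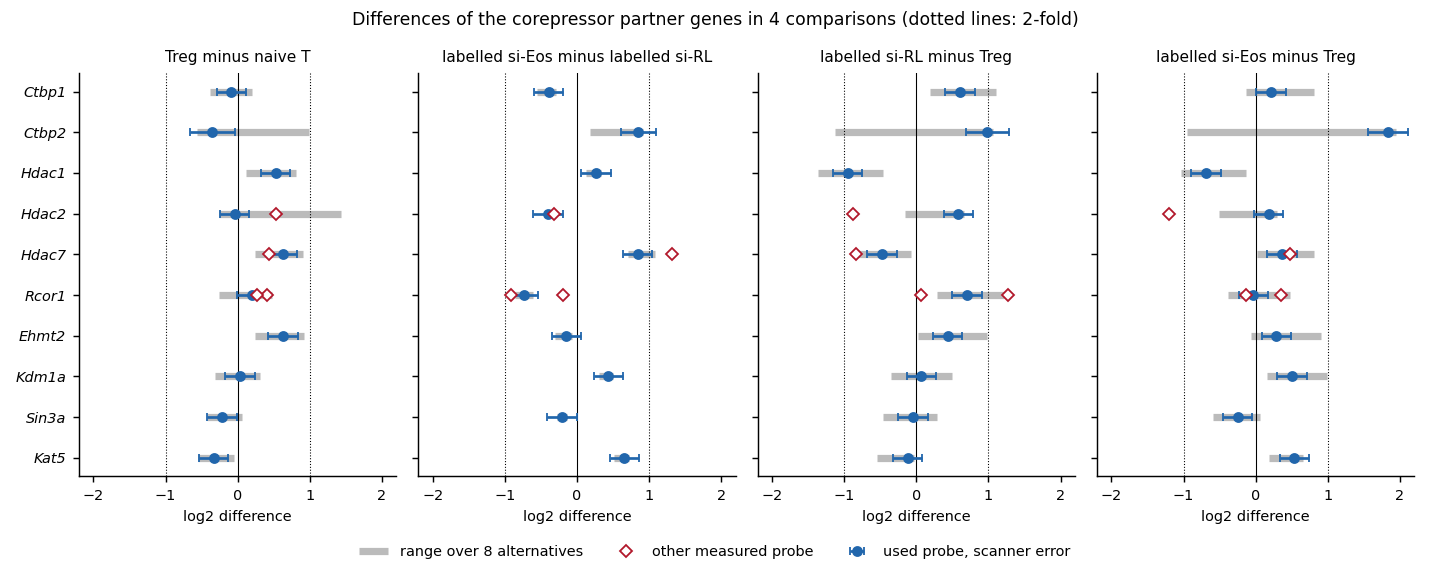
Log2 differences of the 10 genes in the 4 comparisons: blue points are the brightest probe with the scanner error of the 2 spots, red diamonds the other measured probes of the gene, and grey bars the range over 8 alternative scalings, background corrections, probe rules and filters. Dotted lines mark 2-fold. Ctbp2 at 1.83 against Treg is the 1 blue point past 2-fold, with a grey bar down to -0.95, and the Hdac2 probes lie on opposite sides of 0 in both comparisons with Treg.

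**Figure D3:**
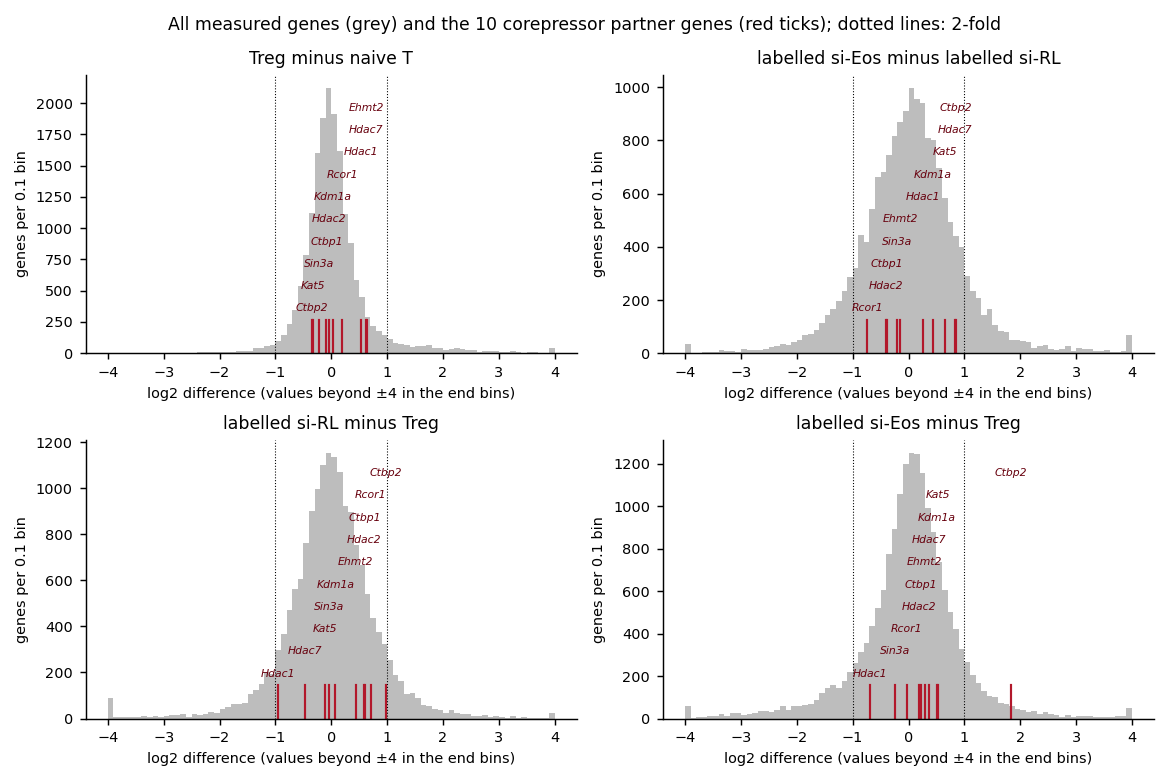
Distribution of log2 differences over all measured genes (grey, genes per 0.1 bin) in the 4 comparisons, with red ticks at the 10 corepressor partner genes. The height of a gene's name carries no value. Ctbp2 in the si-Eos-labelled library against Treg is the 1 tick past the 2-fold lines. The dotted 2-fold lines leave 7.55% of genes outside for Treg against naive T cells and 20.8% outside between the hairpin libraries.

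Differences between 2 genes of the same pair of arrays are free of the scaling between arrays. Between the hairpin libraries, Hdac7 moved up relative to Rcor1 by a log2 gap of 1.58 ± 0.29, and the gap stayed between 1.56 and 1.69 over the alternatives. Kdm1a moved up relative to its partner Rcor1 by 1.17 ± 0.29 (1.05 to 1.24). Thus, on these probes, the enzyme and the scaffold of the CoREST complex differed unequally at the mRNA level between these libraries. The size of both gaps depends on the Rcor1 probe. Its brightest read -0.74 ± 0.20 and its others -0.19 ± 0.21 and -0.91 ± 0.21, and no alternative used either of these alone. Between the si-Eos-labelled library and Treg, Hdac7 moved up relative to Hdac1 by 1.05 ± 0.29 (0.94 to 1.11). Between Treg and naive T cells the same pair moved alike, with a gap of 0.10 ± 0.29, and Hdac7 exceeded its Foxp3 complex partner Kat5 by 0.96 ± 0.29 (0.42 to 1.05). Ctbp2 moved up relative to Ctbp1 by 1.24 ± 0.32 between the hairpin libraries, and by 0.47 with normexp and local backgrounds.

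A set of 105 further corepressor and acetyltransferase genes in 9 lists was examined, and all were on the array. Counts below are of the brightest probe of each gene. Between Treg and naive T cells, 3 of 102 measured (2.94%) were 2-fold apart, beside 7.55% of all measured genes. Hdac6, a cytoplasmic tubulin deacetylase, was higher in Treg (1.08 ± 0.21), Tle2 was higher (1.15 ± 0.24) and Tle4 lower (-1.17 ± 0.20). TLE proteins are Groucho-type corepressors. With quantile normalization 1 gene was 2-fold apart in place of 3.

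Between the hairpin libraries, 3 of these 102 genes were 2-fold or more higher in the si-Eos-labelled library and 12 were lower, beside 10.7% and 10.1% of all measured genes. For Brms1, among the 12 lower (-1.14), the other measured probe read 1.48, so no direction can be given for it. In the CtBP and CoREST list, 4 of 12 measured genes were lower and none higher, with a list median of -0.79. Zeb2 belongs to the same list of 13 but was not measured on both arrays. It was higher in the si-Eos-labelled library, as given below, so the list did not go 1 way. Rcor2, a paralogue of Rcor1, had a signal of 67.7 in the si-Eos-labelled library, 565 in the si-RL-labelled library, and 71.9 in naive T cells, and its level in Treg differed from naive T cells by 0.10 ± 0.21, so that it stood high in the si-RL-labelled library alone. It differed by -3.35 ± 0.21 between the hairpin libraries. Zmym2 (-1.28 ± 0.20) and Phf21a (-1.25 ± 0.20), which encode proteins of CoREST-type complexes, were lower in the si-Eos-labelled library as well. Of the Groucho list, Tle4 (-1.96 ± 0.20), Tle1 (-1.80 ± 0.20) and Tle5 (-1.05 ± 0.20) were lower and none was 2-fold higher. The genes higher in the si-Eos-labelled library were Cdk2ap1 of the NuRD list (1.57 ± 0.20) and the silencing methyltransferase genes Suv39h1 (1.09 ± 0.21) and Suv39h2 (1.08 ± 0.24). The other measured probe of Suv39h2 read -0.48, so no direction can be given for it. On 1 array only of this pair, Zeb2, a zinc-finger repressor that binds CtBP, and Hdac9, a class IIa deacetylase, were well above background. Zeb2 was at least 28.4-fold and Hdac9 at least 10.1-fold higher in the si-Eos-labelled library, the bound being set by the lowest signal called well above background. For Hdac9 this is the bound of its brightest probe. Another Hdac9 probe read a smaller difference of 2.14, with signals of 44.7 in the si-Eos-labelled and 8.32 in the si-RL-labelled library. The latter signal was not well above background, and the remaining Hdac9 probes were not so on any array. Hdac9 was named after its values were seen. The Zeb2 signal was 315 in the si-Eos-labelled library and 20.3 in Treg, a log2 difference of 4.25 ± 0.26.

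Against Treg, the Sin3 list had 5 of 16 genes at least 2-fold higher in the si-RL-labelled library and none lower, with a median of 0.53. For Brms1 and Ogt, among these 5, another probe lay below 0, and with the mean of probes 10 in place of 18 genes of all lists were 2-fold apart. Among the 5 were Sap30, a Sin3 subunit (2.85 ± 0.21), and Mxi1 and Mxd1, DNA-binding repressors that recruit Sin3 (1.67 ± 0.20 and 1.39 ± 0.20). Sap30 had a signal of 502 in the si-Eos-labelled library, 744 in the si-RL-labelled library, 154 in Treg and 77.1 in naive T cells. In the si-Eos-labelled library, 4 of 16 genes of the list were 2-fold higher than in Treg and none lower on the brightest probe, among them Sap30, Mxi1 (1.85 ± 0.20) and Mxd1 (1.25 ± 0.20). The remaining one was Sin3b (1.06 ± 0.20), whose other measured probes lay below 0. The acetyltransferase gene Kat2b was lower than Treg in the si-Eos-labelled library (-1.93 ± 0.20) and in the si-RL-labelled library (-1.08 ± 0.20). Hdac10 was lower in both as well, by -1.37 ± 0.20 and -1.10 ± 0.20. On its brightest probe, Hdac9 was at least 8.78-fold lower in the si-RL-labelled library than in Treg, where its signal was 119. On that probe it differed by 0.20 ± 0.21 between the si-Eos-labelled library and Treg. The other Hdac9 probe with signal above background in Treg (32.2) read -1.37 and 0.77 in these comparisons. In all, 12 of 102 genes were 2-fold higher and 6 lower in the si-RL-labelled library (7.89% and 8.21% of all measured genes), and 7 of 104 higher and 7 lower in the si-Eos-labelled library (8.84% and 10% of all measured genes).

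**Figure D4:**
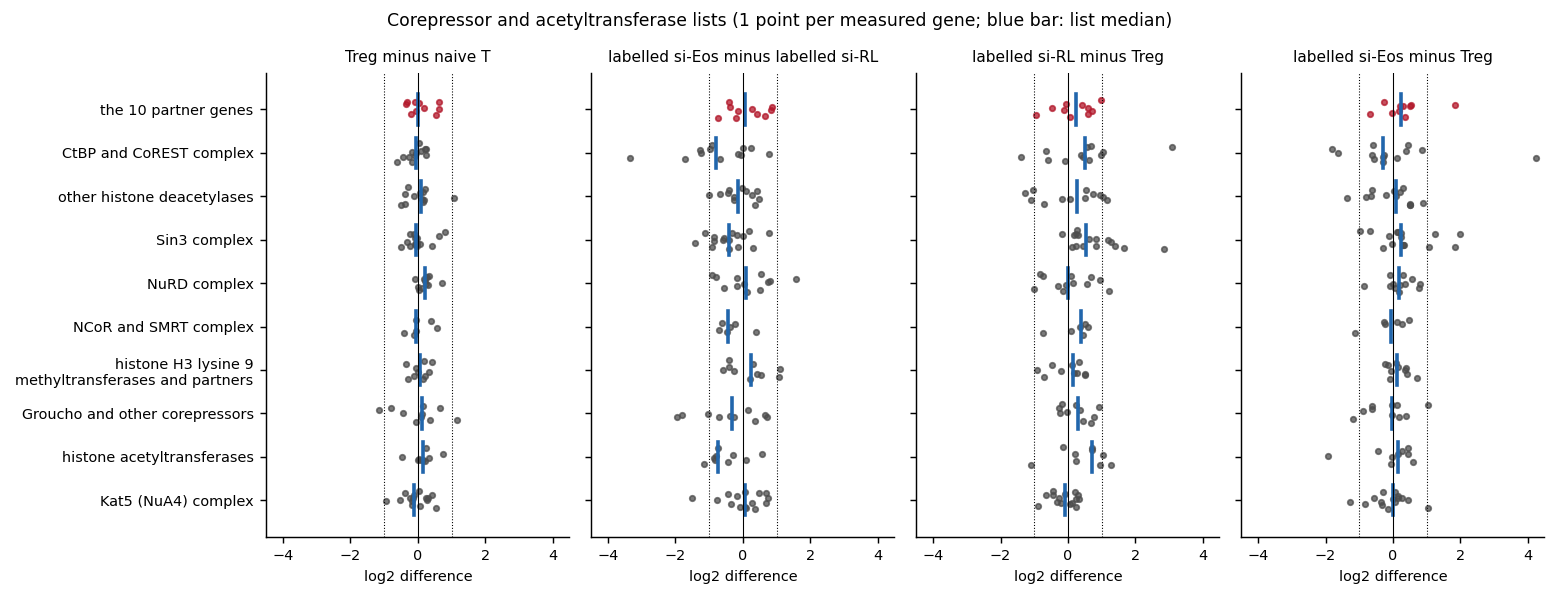
Log2 differences of the 10 genes (red) and of the 105 further genes in 9 lists (grey, 1 point per measured gene) in the 4 comparisons, with the median of each list as a blue bar and dotted lines at 2-fold. In Treg against naive T cells 3 grey points lie past 2-fold. Points are of the brightest probe. Between the hairpin libraries the CtBP and CoREST list has its median at -0.79, with Rcor2 at -3.35. Zeb2 of that list, higher in the si-Eos-labelled library, was not measured on both arrays and has no point there. In both comparisons with Treg the Sin3 list has points only on the higher side past 2-fold, though other probes of some of its genes lie below 0.

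Ctbp2 spanned the widest range over the 4 arrays, so the genes most like it were listed by the distance between centred log2 levels on the 4 arrays, among 16450 other genes measured on all of them. The closest named genes were Slc66a1 (distance 0.12), Klhdc9 (0.13), Padi2 (0.20) and Sytl3 (0.24), and 1 unnamed probe ranked between Klhdc9 and Padi2. Slc66a1 had a signal of 165 in the si-Eos-labelled library, 69.9 in the si-RL-labelled library, 59.5 in Treg and 55.1 in naive T cells. The profile was that of the dim Ctbp2 probe, whose difference from Treg reversed with normexp and local backgrounds. Sytl3 was dim as well, with a signal of 13.6 in Treg and 13.0 in naive T cells. The part of background in this likeness was not tested. With 4 arrays, such likeness describes these libraries only.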

How the data were processed

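RNA of 4 CD4+ T cell samples, 1 per group, was hybridised to 1-colour Agilent mouse arrays with Cy3, per the labels. The deposited scanner files hold linear spot intensity. Per the file headers, Feature Extraction 9.5.3.1 made them, and the headers also name build mm8 and background subtraction with spatial detrending. Arrays were not normalized to each other. The deposited series table holds the same processed intensity (median ratio 1.00, 100% of spots within 0.5%), linear and not centred.

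From these, log2 of the processed signal minus the 75th percentile of each array over 41174 probes was taken. Flagged outlier spots (71 to 94 per array) were left out, spots of 1 probe were averaged, and no spot was saturated. Between 64.0% and 68.3% of probes were well above background, and the 75th percentile of the signal lay between 262 and 392. Probes were named by accession (24375), current symbol (6303) or synonym (2418) through a RefSeq table of GRCm38.p6, and 8078 kept the file's name. The brightest probe stood for a gene, which counted as measured where both arrays had it well above background.

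With 1 array per group there was no replicate and no test. The number of arrays limits the precision, and ± is scanner error only. The 8 alternatives (limma 3.58.1 for normexp with an offset of 50, in R 4.3.3) are described in the closing section. The counting step was tested on simulated data. The members, lists and alternatives were chosen with earlier results of these data known. Genes were named by rule: all 10 members, Eos and Foxp3, per list and comparison up to 4 genes at least 2-fold apart whose other probes agreed in sign, and the 5 genes closest to the member with the widest range. Not all are named in the text. RefSeq promoter windows matched 9 of the 10 members.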

Additional observations from a re-analysis of the deposited data

How the results depend on the processing

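No paired analysis was possible because each group holds 1 array, and no replicate could be left out for the same reason. The alternatives were median scaling, the 75th percentile over probes well above background on all arrays, spike-in scaling, quantile normalization, normexp with local backgrounds or with 1 background value per array, the mean of a gene's measured probes, and no filter on dim probes. The median of all measured genes moved by over 0.1 with spike-in scaling (0.28 for Treg against naive T, -0.42 and -0.35 for the si-RL-labelled and the si-Eos-labelled library against Treg), with median scaling (-0.21 for Treg against naive T, 0.12 for the si-Eos-labelled library against Treg), with normexp, and without the filter (-0.10 between the hairpin libraries, 0.14 for the si-RL-labelled library against Treg).

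For Treg against naive T cells, 1 of the 10 genes (Hdac2) was 2-fold apart with normexp and local backgrounds, in place of 0. The median of the 10 was -0.22 with median scaling and 0.28 with spike-in scaling. Of the further corepressor genes, 3 in the report, 1 was 2-fold apart with quantile normalization and with each normexp, and 5 without the filter. Between the hairpin libraries, 1 of the 10 (Hdac7) was 2-fold apart with the mean of probes. The median of the 10 lay between -0.07 (quantile normalization) and 0.13 (spike-in scaling), around 0.06 in the report, and the further genes 2-fold apart numbered between 10 (each normexp) and 17 (no filter), against 15 in the report. For the si-RL-labelled library against Treg, 1 of the 10 was 2-fold apart with median scaling and quantile normalization (Ctbp2) and with spike-in scaling and normexp with 1 background value (Hdac1), and 3 with normexp and local backgrounds (Rcor1 and Ctbp1 higher, Ctbp2 lower). The median was -0.16 with spike-in scaling and 0.0135 with the mean of probes, which also gave 10 further genes in place of 18. For the si-Eos-labelled library against Treg, 2 of the 10 were 2-fold apart with spike-in scaling (Ctbp2 higher, Hdac1 lower) and 0 with either normexp, and the median was -0.0979 with spike-in scaling. Ctbp2 was the 1 called difference that reversed, at -0.95 with normexp and local backgrounds. The cause was not tested.

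Over the 10 genes and 8 alternatives, 77 of 80 values stayed within the scanner error of the reported one between the hairpin libraries, 53 of 80 for Treg against naive T, 59 of 80 for the si-RL-labelled library and 60 of 80 for the si-Eos-labelled library against Treg. Ctbp2 and the dimmer Hdac2 probe had the lowest signals of the members' probes. The dependence on background was not limited to them. For Treg against naive T cells the brighter Hdac2 probe moved from -0.04 to 1.43 with normexp and local backgrounds.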
